A study of Homo sapiens with 16 samples.

Results

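The genes described here are 9 enzymes that make, salvage or remove deoxynucleotides, the building blocks of DNA. They were chosen by name: RRM1 and RRM2 (ribonucleotide reductase), TYMS and DTYMK (thymidylate synthesis and its phosphorylation), TK1 and DCK (deoxynucleoside kinases), and DUT, DCTPP1 and SAMHD1 (enzymes that break deoxynucleoside triphosphates down). The rule uses their names and no measured value, but the list was chosen with earlier results of these data known. All 9 were found among the 62754 genes of the count table, and all 9 were among the 18549 that passed the filter on low counts.

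RNA of LNCaP, an androgen-responsive human prostate cancer cell line, was read by bulk sequencing of 16 libraries, 4 from each of 4 groups. The groups were p53 KO cells (p53 removed by CRISPR) with GCN2iB, p53 KO cells with vehicle, WT cells with GCN2iB, and WT cells with vehicle. GCN2iB inhibits the kinase GCN2 (gene EIF2AK4), which senses amino acid shortage and raises the transcription factor ATF4. It was given at 5 µM for 48 h. The labels do not say whether the p53 KO line was 1 clone or a pool. Nothing in them says that replicates came from separate cultures, and the spread behind each p-value may therefore be technical. Levels are CPM, read counts relative to scaled library totals. Tests are edgeR quasi-likelihood tests with Benjamini-Hochberg adjusted p-values over all 18549 genes. A gene is called changed where the adjusted p is under 0.05, and every fold change is on the log2 scale. A mean ± SD is over 4 libraries.

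DNA synthesis needs a balanced supply of the deoxynucleoside triphosphates. Ribonucleotide reductase makes most of them from ribonucleotides, thymidylate synthase adds the methyl group that separates thymidine from uridine nucleotides, and the kinases reuse nucleosides from outside the cell or from broken DNA. Several of these genes are transcribed mainly around S phase under E2F and the related cell-cycle complexes, and p53 is known to control RRM2B, a small reductase subunit used outside S phase.

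Before the enzymes, the libraries were checked against their labels. CDKN1A, a direct p53 target, held 38.5 to 51.6 CPM in p53 KO GCN2iB, 35.4 to 43.1 in p53 KO vehicle, 375 to 501 in WT GCN2iB and 247 to 298 in WT vehicle, so the genotypes did not overlap. ATF4 fell with GCN2iB by 0.83 on the log2 scale in p53 KO cells and by 1.22 in WT cells (adjusted p = 6.28e-09 and 5.61e-12). The 9 luminal prostate markers were all tested, with summed levels of 5352 to 5825 CPM in p53 KO GCN2iB, 6063 to 6183 in p53 KO vehicle, 5724 to 5965 in WT GCN2iB and 6502 to 6812 in WT vehicle. Of 9 markers of other cells, 6 never passed 3 counts in a library, and the sum stayed between 19.3 and 28.5 CPM. Some libraries stood apart from their group. On the first principal component WT GCN2iB replicate 4 scored -18.3 where the other 3 of its group lay between -33.6 and -31.5, and on the second component p53 KO GCN2iB replicate 4 scored -30.6 where the other 3 lay between -13.9 and -10.9. WT vehicle replicate 1 scored 35.1 on the second component, where the other 3 lay between 10.8 and 18.7. Without both GCN2iB libraries, the counts of members called with GCN2iB were 9 of 9 in p53 KO and 6 of 9 in WT, and without the WT vehicle library 6 of 9 in WT. Without that library DCK was also called in p53 KO GCN2iB against WT vehicle (adjusted p = 0.0258, in a range of 0.0128 to 0.24 over 18 alternatives).

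Promoter sequence is shown for 6 of the enzymes. They are 5 of the 6 whose RNA rose with GCN2iB in both genotypes, without RRM1, and SAMHD1, which differed most between the genotypes under GCN2iB. Each stretch is the 150 bases before a RefSeq start on GRCh38.p14, written 5′ to 3′ on the gene's own strand. Capitals mark matches, on either strand, to the E2F consensus (TTTCCCGC, TTTCGCGC, TTTGCCGC or TTTGGCGC), the cell-cycle homology region (TTTGAA or TTCGAA) or the CCAAT box (CCAAT).
RRM2, chr2:10122589-10122738, plus strand: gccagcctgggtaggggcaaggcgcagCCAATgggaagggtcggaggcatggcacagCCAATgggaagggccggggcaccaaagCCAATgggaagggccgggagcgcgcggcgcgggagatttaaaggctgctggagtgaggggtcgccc
TK1, chr17:78187053-78187202, minus strand: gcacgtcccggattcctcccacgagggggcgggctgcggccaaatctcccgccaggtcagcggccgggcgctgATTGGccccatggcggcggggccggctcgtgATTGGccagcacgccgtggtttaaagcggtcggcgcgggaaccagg
TYMS, chr18:657503-657652, plus strand: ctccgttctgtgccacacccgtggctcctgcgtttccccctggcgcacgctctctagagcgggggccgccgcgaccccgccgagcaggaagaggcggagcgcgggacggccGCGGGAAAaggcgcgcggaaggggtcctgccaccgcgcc
DTYMK, chr2:241686816-241686965, minus strand: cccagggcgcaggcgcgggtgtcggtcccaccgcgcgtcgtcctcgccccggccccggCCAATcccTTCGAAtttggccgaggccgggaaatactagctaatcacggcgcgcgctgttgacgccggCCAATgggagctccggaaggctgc
DUT, chr15:48332047-48332196, plus strand: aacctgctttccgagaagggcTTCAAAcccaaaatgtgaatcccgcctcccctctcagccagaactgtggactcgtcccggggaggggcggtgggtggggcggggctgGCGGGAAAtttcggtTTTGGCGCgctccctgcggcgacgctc
SAMHD1, chr20:36951709-36951858, minus strand: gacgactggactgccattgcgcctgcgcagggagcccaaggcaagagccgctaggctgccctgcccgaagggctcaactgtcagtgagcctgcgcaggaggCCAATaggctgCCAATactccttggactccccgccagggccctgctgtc
RRM2 held 3 CCAAT boxes in this stretch, spaced at -123, -93 and -66 from the start. TK1 held 2 CCAAT boxes, TYMS 1 E2F match, and DTYMK 2 CCAAT boxes and 1 cell-cycle homology match. DUT held 2 E2F matches and 1 cell-cycle homology match in the last of its 4 RefSeq windows. The other windows of DUT and of TK1 are not shown and had no match. SAMHD1 held 2 CCAAT boxes. No matches overlapped each other.

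Over whole windows of 250 bases before to 50 bases after a start, the 9 enzymes had 14 windows. An E2F match lay in 3 of the 14, for TYMS, DUT and DCK, and the match of DCK lay 21 bases past the start. Of all 35116 RefSeq windows of that length, 3.31% held one. A cell-cycle homology match lay in 3 of the 14 (RRM1, DTYMK and DUT), against 16.4% of all windows. A CCAAT box lay in 6 of the 14 (RRM1, DTYMK, SAMHD1, 1 of TK1 and both of RRM2), against 34.6% of all windows. Windows of 1 gene can overlap, and a match is a run of letters, not a site shown to be bound. DCTPP1 held none of the 3 motifs.

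The first comparison asked how GCN2iB changed the enzymes in each genotype. In p53 KO cells all 9 rose, from 0.27 for SAMHD1 to 0.80 for TK1 on the log2 scale, which is 1.2-fold to 1.74-fold. In WT cells 6 of 9 rose, from 0.28 for RRM1 to 0.73 for TK1, and DCK, DCTPP1 and SAMHD1 were not called. No member fell in either genotype. Of all genes tested, 20.1% were called in p53 KO cells (11.4% higher, 8.71% lower) and 25.2% in WT cells (11.6% higher, 13.6% lower). In p53 KO cells 2119 genes were higher and 1615 lower, and on scaling by library totals 1401 and 2672, where 7 of the 9 members were called. In WT cells 2153 were higher and 2524 lower, and on scaling by DESeq2 size factors 2341 and 2283, where 6 members were called. The median log2 change of the 9 was 0.48 in p53 KO and 0.30 in WT cells, beside -0.013 and -0.027 over all tested genes. In bulk RNA, fewer cells of a type and less RNA per cell cannot be told apart. The summed luminal markers were lower with GCN2iB in both genotypes, and their part in these changes was not tested.

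**Figure D1:**
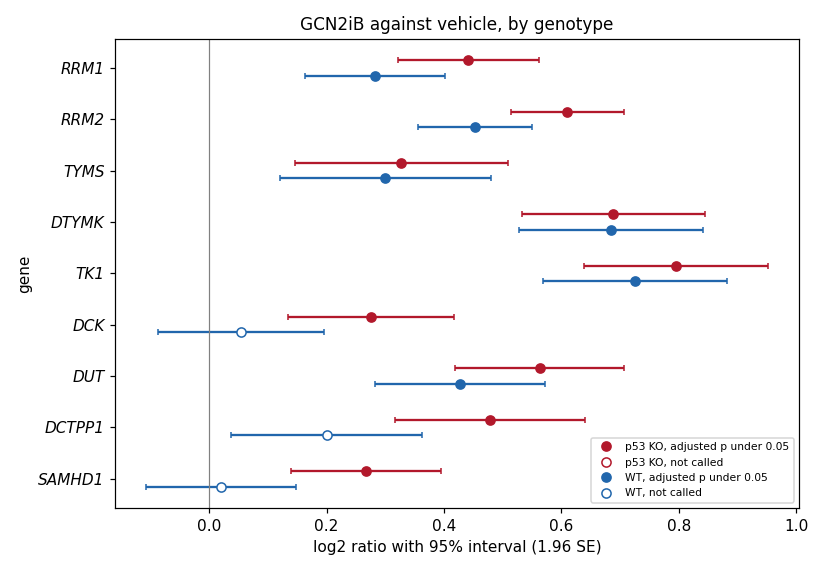
Log2 ratio of GCN2iB to vehicle for each enzyme in p53 KO cells (red, upper point) and WT cells (blue, lower point), with 95% intervals and filled points where the adjusted p was under 0.05. All 9 red points are filled and lie between 0.27 and 0.80, and the blue points of DCK, DCTPP1 and SAMHD1 are open.

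The 9 are protein-coding genes, and their spans are those of GENCODE 29 on GRCh38. RRM1 (ENSG00000167325, chr11:4094707-4138876, plus strand) encodes the large catalytic subunit of ribonucleotide reductase. RRM1 held 277, 279, 286 and 245 CPM in the p53 KO GCN2iB libraries, against 206, 205, 203 and 187 CPM in p53 KO vehicle. In WT cells it held 254, 229, 230.2 and 230.5 CPM under GCN2iB and 208, 191, 194 and 184 CPM under vehicle. All GCN2iB libraries lay above all vehicle libraries in both genotypes, and p53 KO GCN2iB replicate 4 was the lowest of its group. The means were 272 ± 18.3 CPM in p53 KO GCN2iB, 200.3 ± 8.65 in p53 KO vehicle, 236 ± 12.1 in WT GCN2iB and 194 ± 10.3 in WT vehicle. RRM1 rose with GCN2iB by 0.44 (SE 0.061, adjusted p = 2.09e-05) in p53 KO and by 0.28 (SE 0.061, adjusted p = 0.00162) in WT cells. RRM2 (ENSG00000171848, chr2:10120698-10131419, plus strand) encodes the small subunit, which carries the tyrosyl radical and is made and degraded with the cell cycle. RRM2 held 351, 361, 361 and 342 CPM in the p53 KO GCN2iB libraries, against 237, 235, 234 and 221 CPM in p53 KO vehicle. WT cells held 372, 361, 365 and 362 CPM under GCN2iB and 276, 268, 262 and 261 CPM under vehicle. The groups were again apart within each genotype, and the vehicle libraries of p53 KO all lay below those of WT. Means were 354 ± 8.96 CPM in p53 KO GCN2iB, 232 ± 7.24 in p53 KO vehicle, 365 ± 4.73 in WT GCN2iB and 267 ± 6.78 in WT vehicle. RRM2 rose by 0.61 (SE 0.049, adjusted p = 1.06e-08) in p53 KO and by 0.45 (SE 0.049, adjusted p = 6.94e-07) in WT cells, the smallest adjusted p of the 9 in both. RRM1 is overlapped by an antisense transcript that never passed 4 counts in a library. An annotated gene that shares 1077 bases of exon with RRM2 on the same strand has no entry in the count table.

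TYMS (ENSG00000176890, chr18:657604-673578, plus strand) encodes thymidylate synthase, the target of fluorouracil. TYMS held 17.3, 20.4, 23.3 and 18.6 CPM in the p53 KO GCN2iB libraries, against 15.7, 17.2, 16.4 and 13.8 CPM in p53 KO vehicle. The WT libraries held 22.3, 20.1, 24.7 and 24.4 CPM under GCN2iB and 17.7, 19.8, 19.3 and 17.4 CPM under vehicle. TYMS had the lowest CPM and the fewest reads of the 9, 350 to 672 counts per library in WT vehicle, and its GCN2iB and vehicle libraries came close to each other in both genotypes. Group means were 19.9 ± 2.61 CPM in p53 KO GCN2iB, 15.8 ± 1.45 in p53 KO vehicle, 22.9 ± 2.11 in WT GCN2iB and 18.6 ± 1.17 in WT vehicle. It rose by 0.33 (SE 0.093, adjusted p = 0.0145) in p53 KO and by 0.30 (SE 0.092, adjusted p = 0.0188) in WT cells. Both calls lay near the threshold. The call in p53 KO was lost on scaling by library totals (adjusted p = 0.0519), without p53 KO GCN2iB replicate 3 (0.0593) and with GC and length trends removed (0.0542), within a range of 0.00245 to 0.0593 over 18 alternatives. The call in WT was lost without WT vehicle replicate 4 (0.0522), WT GCN2iB replicate 3 (0.0689) or WT GCN2iB replicate 4 (0.0632), within a range of 0.00329 to 0.0689. TYMS shares 967 exon bases with ENOSF1 on the other strand, and strand use in counting is not given in the sources used here, so reads there cannot be told apart. TYMS also shares 183 exon bases with the antisense TYMSOS (48 to 201 counts), which was not called at 0.34 (SE 0.15, adjusted p = 0.126) in p53 KO and 0.34 (SE 0.15, adjusted p = 0.101) in WT cells. ENOSF1 changed the other way from TYMS, by -0.25 (SE 0.066, adjusted p = 0.0101) in p53 KO and -0.30 (SE 0.066, adjusted p = 0.00212) in WT cells.

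DTYMK (ENSG00000168393, chr2:241675742-241686991, minus strand) encodes the kinase that turns thymidine monophosphate into the diphosphate. DTYMK held 114, 121, 113 and 144 CPM in the p53 KO GCN2iB libraries, against 65.4, 79.1, 76.6 and 84.9 CPM in p53 KO vehicle. Its WT libraries held 120, 118, 122 and 124 CPM under GCN2iB and 69.0, 73.9, 76.9 and 80.8 CPM under vehicle. The groups did not overlap, and p53 KO GCN2iB replicate 4 was the highest of its group. DTYMK averaged 123 ± 14.3 CPM in p53 KO GCN2iB, 76.5 ± 8.14 in p53 KO vehicle, 121 ± 2.67 in WT GCN2iB and 75.2 ± 4.99 in WT vehicle. DTYMK rose by 0.69 (SE 0.08, adjusted p = 2.28e-06) in p53 KO and by 0.68 (SE 0.08, adjusted p = 1.85e-06) in WT cells, 1.61-fold in each.

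TK1 (ENSG00000167900, chr17:78174075-78187233, minus strand) encodes cytosolic thymidine kinase, the salvage enzyme of S phase. TK1 held 359, 367, 359.7 and 426 CPM in the p53 KO GCN2iB libraries, against 183, 224, 224 and 240.3 CPM in p53 KO vehicle. In WT cells TK1 held 390.2, 372, 358 and 375 CPM under GCN2iB and 196, 228, 233 and 247 CPM under vehicle. Every GCN2iB library lay above every vehicle library, with the highest value in p53 KO GCN2iB replicate 4 and the lowest vehicle value in replicate 1 of both genotypes. TK1 averaged 378 ± 32.3 CPM in p53 KO GCN2iB, 218 ± 24.6 in p53 KO vehicle, 374 ± 13.1 in WT GCN2iB and 226 ± 21.6 in WT vehicle. TK1 rose by 0.80 (SE 0.08, adjusted p = 3.17e-07) in p53 KO and by 0.73 (SE 0.08, adjusted p = 8.29e-07) in WT cells, 1.74-fold and 1.65-fold, the largest change of the 9 in each genotype. DCK (ENSG00000156136, chr4:70992538-71030914, plus strand) encodes deoxycytidine kinase, which also activates the drugs cytarabine and gemcitabine. DCK held 43.5, 43.6, 45.6 and 44.3 CPM in the p53 KO GCN2iB libraries, against 41.2, 35.5, 35.9 and 33.4 CPM in p53 KO vehicle. WT libraries had 42.4, 38.6, 40.0 and 42.0 CPM under GCN2iB and 43.7, 35.6, 37.4 and 40.7 CPM under vehicle. In p53 KO the groups were apart, and in WT they overlapped. Mean levels were 44.2 ± 0.94 CPM in p53 KO GCN2iB, 36.5 ± 3.34 in p53 KO vehicle, 40.7 ± 1.79 in WT GCN2iB and 39.3 ± 3.59 in WT vehicle. DCK rose by 0.28 (SE 0.072, adjusted p = 0.00854) in p53 KO cells. On scaling by library totals this call was lost (adjusted p = 0.0523, in a range of 0.000149 to 0.0523 over 18 alternatives). WT cells showed no called change. There the change was 0.054 (SE 0.072, adjusted p = 0.635) with a 95% interval of -0.088 to 0.20, and it was called only with GC and length trends removed (0.13, adjusted p = 0.0401, in a range of 0.0401 to 0.863). DCK shares 199 exon bases with MOB1B on the same strand, and MOB1B was lower with GCN2iB by 0.35 and 0.30 on the log2 scale.

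DUT (ENSG00000128951, chr15:48331011-48343373, plus strand) encodes dUTPase, which keeps uracil out of DNA and supplies the substrate of thymidylate synthase. DUT held 119.6, 119.5, 123 and 145 CPM in the p53 KO GCN2iB libraries, against 82.3, 86.0, 89.8 and 85.4 CPM in p53 KO vehicle. DUT in WT cells was at 108, 104, 125 and 130.5 CPM under GCN2iB and 89.8, 84.9, 85.0 and 88.6 CPM under vehicle. The groups did not overlap, and the WT GCN2iB libraries fell into a lower and a higher pair. Averages were 127 ± 12.2 CPM in p53 KO GCN2iB, 85.9 ± 3.05 in p53 KO vehicle, 117 ± 12.8 in WT GCN2iB and 87.1 ± 2.47 in WT vehicle. DUT rose by 0.56 (SE 0.074, adjusted p = 1.02e-05) in p53 KO and by 0.43 (SE 0.074, adjusted p = 0.000194) in WT cells. DCTPP1 (ENSG00000179958, chr16:30423619-30430075, minus strand) encodes a pyrophosphatase of deoxycytidine triphosphate and its modified forms. DCTPP1 held 97.9, 92.5, 97.4 and 117 CPM in the p53 KO GCN2iB libraries, against 64.6, 73.2, 73.1 and 79.5 CPM in p53 KO vehicle. In WT libraries there were 95.2, 82.9, 85.0 and 89.5 CPM under GCN2iB and 66.1, 77.1, 77.4 and 86.0 CPM under vehicle. In p53 KO the groups were apart, and in WT replicate 4 of the vehicle reached into the GCN2iB range. DCTPP1 averaged 101 ± 10.7 CPM in p53 KO GCN2iB, 72.6 ± 6.11 in p53 KO vehicle, 88.2 ± 5.44 in WT GCN2iB and 76.6 ± 8.14 in WT vehicle. DCTPP1 rose by 0.48 (SE 0.083, adjusted p = 0.000249) in p53 KO cells and changed by 0.20 (SE 0.083, adjusted p = 0.0804) in WT cells. In WT it was called without the count filter (adjusted p = 0.043), with at least 50 counts on average (0.0494), with only the groups compared (0.0374) and without WT vehicle replicate 4 (0.0296), in a range of 0.0125 to 0.201 over 18 alternatives.

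SAMHD1 (ENSG00000101347, chr20:36889773-36951901, minus strand) encodes the triphosphohydrolase that degrades all the canonical deoxynucleoside triphosphates and restricts retroviruses in resting cells. SAMHD1 held 80.9, 86.2, 87.0 and 72.7 CPM in the p53 KO GCN2iB libraries, against 66.6, 69.8, 70.5 and 64.5 CPM in p53 KO vehicle. SAMHD1 in WT cells was at 70.2, 69.8, 65.8 and 68.0 CPM under GCN2iB and 73.2, 66.6, 67.7 and 62.7 CPM under vehicle. In p53 KO the 4 GCN2iB libraries lay above the vehicle libraries, with replicate 4 close to them, and in WT the values overlapped throughout. SAMHD1 averaged 81.7 ± 6.61 CPM in p53 KO GCN2iB, 67.8 ± 2.8 in p53 KO vehicle, 68.4 ± 2.04 in WT GCN2iB and 67.5 ± 4.37 in WT vehicle. SAMHD1 rose by 0.27 (SE 0.065, adjusted p = 0.0051) in p53 KO cells. WT cells showed no called change of SAMHD1. It was 0.02 (SE 0.065, adjusted p = 0.854) there, with a 95% interval of -0.11 to 0.15. That value was below 0 on scaling by library totals and without WT vehicle replicate 4, and it was called with GC and length trends removed (0.11, adjusted p = 0.0404, in a range of 0.0404 to 0.954 over 18 alternatives). Antisense overlaps were also annotated for the enzymes that break nucleotides down. DUT shares 533 exon bases with DUT-AS1 (16 to 67 counts), DCTPP1 shares 666 with ZNF771 (265 to 861 counts, not called), and SAMHD1 shares 1159 with TLDC2 (at most 3 counts). Pseudogenes of the members never passed 7 counts in a library.

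**Figure D2:**
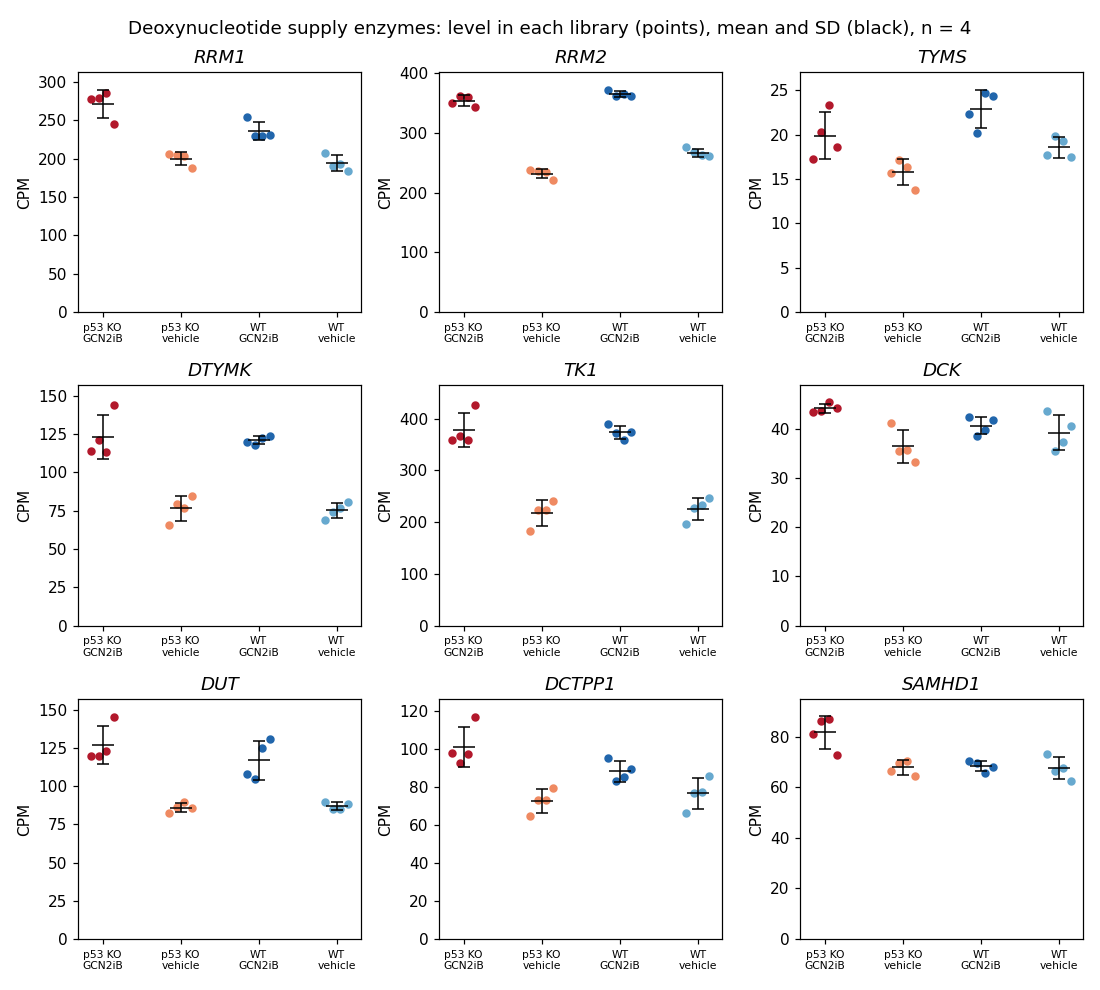
CPM of each enzyme in each library (points, replicate 1 to 4 from left to right), with the mean and SD of 4 libraries (black), for p53 KO GCN2iB, p53 KO vehicle, WT GCN2iB and WT vehicle. In RRM1, RRM2, TYMS, DTYMK, TK1 and DUT the GCN2iB points lie above the vehicle points in both genotypes, while DCK, DCTPP1 and SAMHD1 overlap in WT.

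Per kilobase of exon, which allows genes to be set beside each other, TK1 was the most abundant of the 9, with mean levels of 203 CPM per kb in p53 KO GCN2iB, 117 in p53 KO vehicle, 201 in WT GCN2iB and 121 in WT vehicle. The reductase subunits stood lower, RRM2 at 66.4, 43.5, 68.6 and 50.1 CPM per kb in the same groups, and RRM1 at 65.1, 47.9, 56.5 and 46.5. SAMHD1 and TYMS were the least abundant, at 7.25 and 8.05 CPM per kb in p53 KO GCN2iB and 6.00 and 7.52 in WT vehicle. The length is the union of all annotated exons, 11261 bases for SAMHD1, and isoforms in use were not resolved.

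The order of the 4 group means differed between members. RRM1, TK1, DTYMK, DUT, DCK, DCTPP1 and SAMHD1 were highest in p53 KO GCN2iB, followed by WT GCN2iB. RRM2 and TYMS were highest in WT GCN2iB, with p53 KO GCN2iB next, and lowest in p53 KO vehicle. For 5 members (RRM1, RRM2, TK1, DTYMK and DUT) the lower of the GCN2iB groups lay wholly above the higher of the vehicle groups. The share of all tested genes with groups so apart was not counted. For DCK and SAMHD1 only p53 KO GCN2iB stood clear of its neighbour in the order, and for DCTPP1 no neighbouring groups were apart. For DCK and SAMHD1 that group still overlapped WT vehicle, which lay further down the order. Its lowest library was below WT vehicle replicate 1, at 43.49 against 43.68 CPM for DCK and 72.65 against 73.25 CPM for SAMHD1.

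The second comparison set p53 KO against WT cells under each treatment. Under vehicle 1 of 9 members was called, RRM2, which was lower in p53 KO, where 21.7% of all genes were called, 9.63% higher and 12.1% lower (1787 and 2238 genes, and 2467 and 1593 on scaling by library totals). Under GCN2iB 2 of 9 were called, RRM1 and SAMHD1, both higher in p53 KO, where 23.9% of all genes were called, 12.7% higher and 11.2% lower. Those were 2356 and 2085 genes, and 2114 and 2277 on scaling by DESeq2 size factors. Neither count of members lay above the share of all genes called in either direction. The median log2 difference of the 9 was -0.053 under vehicle and 0.12 under GCN2iB, beside 0.0059 and 0.025 over all genes.

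RRM2 was lower in p53 KO than in WT vehicle libraries, 221 to 237 against 261 to 276 CPM, a log2 difference of -0.20 (SE 0.049, adjusted p = 0.00408). The call held in the 17 alternatives run, with adjusted p from 5.87e-06 to 0.0493. Under GCN2iB the ranges overlapped, and the difference was -0.046 with a 95% interval of -0.14 to 0.051 (adjusted p = 0.543). SAMHD1 did not differ beyond its spread under vehicle, at 0.0075 with an interval of -0.12 to 0.13. Under GCN2iB it was higher in p53 KO, 72.7 to 87.0 against 65.8 to 70.2 CPM, a log2 difference of 0.25 (SE 0.065, adjusted p = 0.00594), with adjusted p from 9.04e-05 to 0.0464 over 18 alternatives.

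RRM1 under GCN2iB differed by 0.20 (SE 0.061, adjusted p = 0.0169), but its ranges overlapped, 245 to 286 CPM in p53 KO and 229 to 254 CPM in WT. That call was lost without the count filter (adjusted p = 0.0795), with only the groups compared (0.0526), without WT GCN2iB replicate 2 (0.0537) or 3 (0.0539), and without p53 KO GCN2iB replicate 1 (0.0833), 2 (0.052) or 3 (0.103), in a range of 0.0015 to 0.103 over 18 alternatives. TYMS was lower in p53 KO at both treatments without being called, with log2 differences of -0.21 (SE 0.092, adjusted p = 0.098) under GCN2iB and -0.24 (SE 0.093, adjusted p = 0.0689) under vehicle. Under vehicle its libraries did not overlap, 13.8 to 17.2 CPM in p53 KO and 17.4 to 19.8 CPM in WT. It was called without p53 KO vehicle replicate 2 (adjusted p = 0.05 as rounded, in a range of 0.0252 to 0.18) and, under GCN2iB, without p53 KO GCN2iB replicate 3 (0.0177) and with GC and length trends removed (0.0253, in a range of 0.0177 to 0.318). DCTPP1 under GCN2iB was 0.20 (SE 0.082, adjusted p = 0.0853) and was called with library totals (0.0455) and with GC and length trends removed (0.00539, in a range of 0.00539 to 0.295). For TK1, DTYMK, DUT and DCK the 95% intervals of the genotype difference under GCN2iB were -0.14 to 0.17, -0.13 to 0.18, -0.028 to 0.26 and -0.023 to 0.26. TK1 there was called with GC and length trends removed (0.0371), and the sign of the TK1 and DTYMK differences turned under other settings.

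**Figure D3:**
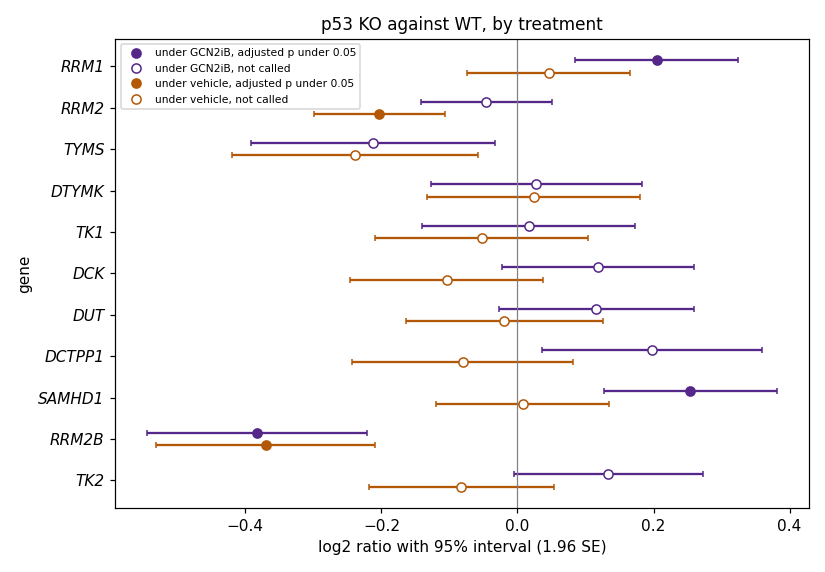
Log2 ratio of p53 KO to WT for the 9 enzymes and for RRM2B and TK2, under GCN2iB (purple, upper point) and under vehicle (orange, lower point), with 95% intervals and filled points where the adjusted p was under 0.05. RRM2 is filled under vehicle, RRM1 and SAMHD1 under GCN2iB, and RRM2B under both at -0.38 and -0.37.

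Whether the response to GCN2iB differed between the genotypes was tested directly as an interaction, the p53 KO response minus the WT response. None of the 9 members was called by edgeR's quasi-likelihood test, beside 1 of 18549 genes (0.00539%). At an unadjusted p under 0.05 there were 4, RRM2, DCK, DCTPP1 and SAMHD1, where 9.46% of all genes were below that p. The DESeq2 test called 0 members with 3 below that unadjusted p, and limma voom called 0 with 4. No member was called in any of the 25 alternatives. The differences were 0.25 for SAMHD1 (95% interval 0.066 to 0.43, unadjusted p = 0.0133, adjusted p = 0.406), 0.28 for DCTPP1 (0.05 to 0.51), 0.22 for DCK (0.022 to 0.42) and 0.16 for RRM2 (0.021 to 0.29). RRM1, at 0.16 (-0.011 to 0.33), was of like size. For TYMS, TK1, DTYMK and DUT the intervals were -0.23 to 0.28, -0.15 to 0.29, -0.22 to 0.22 and -0.068 to 0.34. So the calls of DCK, DCTPP1 and SAMHD1 in p53 KO and not in WT were not shown to differ between the genotypes.

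The last comparison took both changes together, p53 KO cells with GCN2iB against WT cells with vehicle, and shares its libraries with the comparisons above. All but TYMS and DCK were called, 7 of 9, all higher, where 37.0% of all genes were called, 18.5% higher and 18.5% lower. TK1 differed by 0.74 (SE 0.08, adjusted p = 1.57e-07) and DTYMK by 0.71 (SE 0.08, adjusted p = 2.81e-07). RRM1 differed by 0.49 (SE 0.061, adjusted p = 1.37e-06) and RRM2 by 0.41 (SE 0.049, adjusted p = 8e-07). SAMHD1 was 0.27 (SE 0.065, adjusted p = 0.00194), although its ranges overlapped. TYMS differed by 0.088 (SE 0.093, adjusted p = 0.493) with an interval of -0.094 to 0.27. DCK, at 0.17 (SE 0.072, adjusted p = 0.0666), was called with at least 50 counts on average (adjusted p = 0.0458), without WT vehicle replicate 1 (0.0258) and with GC and length trends removed (0.0128, in a range of 0.0128 to 0.24 over 18 alternatives).

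RRM2B and TK2 are the counterparts of RRM2 and TK1 that serve cells outside S phase and mitochondria. RRM2B held 75.5, 71.2, 80.0 and 66.2 CPM in p53 KO GCN2iB, against 91.0, 78.8, 75.0 and 69.8 CPM in p53 KO vehicle, and 97.7, 95.9, 96.5 and 91.5 CPM in WT GCN2iB, against 117, 93.8, 104 and 92.2 CPM in WT vehicle. All p53 KO libraries were below all WT libraries under each treatment, while GCN2iB and vehicle overlapped. RRM2B was lower in p53 KO by 0.38 under GCN2iB (adjusted p = 0.00147) and by 0.37 under vehicle (adjusted p = 0.00194), and GCN2iB changed it by -0.11 (SE 0.082, adjusted p = 0.407) in p53 KO and -0.092 (SE 0.082, adjusted p = 0.45) in WT cells. TK2 held 24.7, 22.6, 22.9 and 21.3 CPM in p53 KO GCN2iB, against 24.9, 26.1, 26.5 and 26.3 CPM in p53 KO vehicle, and 22.4, 18.6, 20.5 and 21.9 CPM in WT GCN2iB, against 26.2, 26.7, 28.0 and 28.9 CPM in WT vehicle. The GCN2iB libraries of TK2 lay below the vehicle libraries in both genotypes. TK2 fell by 0.40 with GCN2iB in WT cells (SE 0.07, adjusted p = 0.000236), and its change of -0.18 (SE 0.07, adjusted p = 0.0691) in p53 KO cells was not called, though it was with library totals (0.0155), at least 50 counts on average (0.0242), the DESeq2 test (0.0494) or without p53 KO GCN2iB replicate 1 (0.0402, in a range of 0.0155 to 0.184). The difference between both responses was 0.22 (SE 0.10, adjusted p = 0.507).

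Ratios of counts within a library do not depend on how totals are scaled. They are not divided by length, so only groups are compared, with no test. RRM2 to RRM2B was 4.65, 5.07, 4.51 and 5.17 in p53 KO GCN2iB, 2.6, 2.99, 3.12 and 3.17 in p53 KO vehicle, 3.8, 3.77, 3.78 and 3.96 in WT GCN2iB and 2.35, 2.85, 2.52 and 2.83 in WT vehicle. No p53 KO GCN2iB library came down to the WT GCN2iB range, and each GCN2iB group stood clear of its vehicle. TK1 to TK2 averaged 16.6 ± 2.36 in p53 KO GCN2iB, 8.38 ± 0.751 in p53 KO vehicle, 18.0 ± 1.33 in WT GCN2iB and 8.21 ± 0.498 in WT vehicle, so the GCN2iB groups stood far above the vehicle groups and the genotypes overlapped under each treatment. SAMHD1 to RRM2, the degrading enzyme over the reductase subunit, averaged 0.231 ± 0.0131 in p53 KO GCN2iB, 0.293 ± 0.00883 in p53 KO vehicle, 0.188 ± 0.00548 in WT GCN2iB and 0.253 ± 0.011 in WT vehicle. The ratio was lower with GCN2iB than with vehicle in each genotype and higher in p53 KO than in WT at each treatment, with no overlap between the groups so compared.

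**Figure D4:**
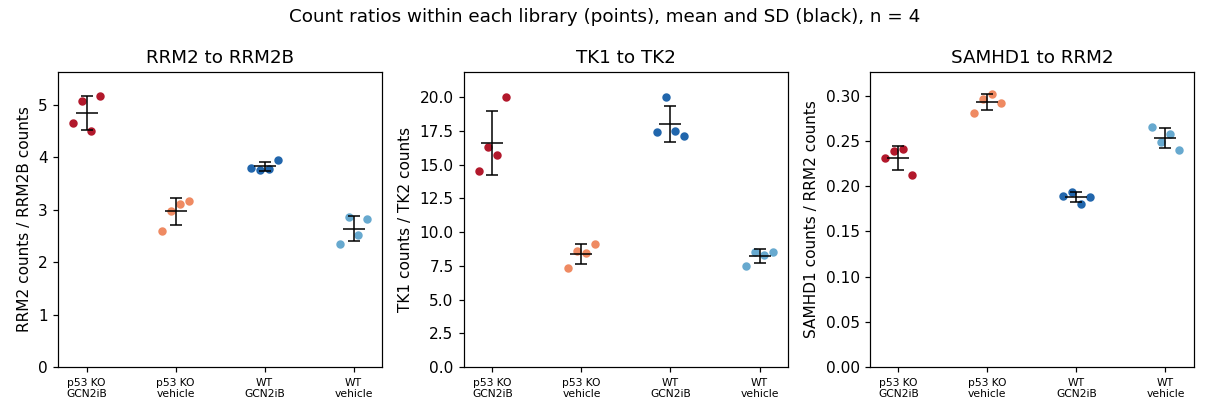
Ratio of the counts of RRM2 to RRM2B, TK1 to TK2 and SAMHD1 to RRM2 within each library (points), with the mean and SD of 4 libraries (black). The first ratio averages 4.85 in p53 KO GCN2iB and 2.64 in WT vehicle, and the third is highest in p53 KO vehicle and lowest in WT GCN2iB.

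Beyond the 9, a list of 33 other genes of deoxynucleotide metabolism was examined, of which 32 were tested. With GCN2iB, 11 rose and 1 fell in p53 KO cells and 7 rose and 3 fell in WT cells, with median changes of 0.11 and 0.083. Of all genes 11.4% rose and 8.71% fell in p53 KO cells, and 11.6% rose and 13.6% fell in WT cells. SHMT1, which makes one-carbon units for thymidylate synthesis, rose by 0.33 (SE 0.054, adjusted p = 0.000152) in p53 KO and by 0.27 (SE 0.055, adjusted p = 0.000879) in WT cells. NUDT1, which removes oxidised purine nucleotides, rose by 0.45 (SE 0.10, adjusted p = 0.00345) and by 0.51 (SE 0.10, adjusted p = 0.0011) in the same order. NT5C3A, a pyrimidine nucleotidase, rose by 0.33 (SE 0.061, adjusted p = 0.00052) in p53 KO and by 0.21 (SE 0.062, adjusted p = 0.0176) in WT cells, and the WT call was lost without WT GCN2iB replicate 4 (0.0726) or without the count filter (0.0648, in a range of 0.0005 to 0.0726 over 18 alternatives). NME1, a nucleoside diphosphate kinase, rose by 0.50 (SE 0.11, adjusted p = 0.00296) in p53 KO cells. SLC25A36, a mitochondrial carrier of pyrimidine nucleotides, fell by 0.44 in p53 KO (adjusted p = 0.00434) and by 0.35 in WT cells (adjusted p = 0.0167), and the WT call was lost without WT vehicle replicate 1 (0.0932, in a range of 0.000166 to 0.0932). SLC29A1, the nucleoside transporter ENT1, rose by 0.27 (SE 0.079, adjusted p = 0.0175) in p53 KO and by 0.30 (SE 0.078, adjusted p = 0.00656) in WT cells. DGUOK, the mitochondrial deoxyguanosine kinase, changed by 0.079 (SE 0.10, adjusted p = 0.628) in p53 KO and by 0.22 (SE 0.10, adjusted p = 0.104) in WT cells. Neither was called, though the WT change was with only the groups compared (0.0363, in a range of 0.0102 to 0.318 over 18 alternatives).

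Between genotypes, under GCN2iB 4 of 32 were higher and 6 lower in p53 KO, where 12.7% of all genes were higher and 11.2% lower, and the list's median was 0.011. Under vehicle 2 were higher and 7 lower, where 9.63% of all genes were higher and 12.1% lower, a lean of all genes that turned on scaling by library totals. DCTD, which deaminates deoxycytidine monophosphate toward thymidylate, was lower by 0.47 (adjusted p = 1.62e-06) under GCN2iB and by 0.57 (adjusted p = 6.77e-08) under vehicle. SLC29A1 was lower by 0.39 (adjusted p = 0.000733) and by 0.36 (adjusted p = 0.00168), and ADA, adenosine deaminase, by 0.49 (adjusted p = 0.00124) and 0.46 (adjusted p = 0.00211) in the same order. CMPK2, a mitochondrial nucleotide kinase, was higher by 0.96 (SE 0.10, adjusted p = 1.23e-07) under GCN2iB and 0.84 (SE 0.10, adjusted p = 8.34e-07) under vehicle. SHMT1 was higher by 0.23 (SE 0.054, adjusted p = 0.00328) and 0.17 (SE 0.055, adjusted p = 0.0278).

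Genes of S-phase entry moved in the same libraries. Of 22 genes of G1/S control, 12 rose and 1 fell with GCN2iB in p53 KO cells, and 9 rose and 0 fell in WT cells, with medians of 0.29 and 0.19. Of 33 replication genes 26 rose in p53 KO and 20 in WT cells and 0 fell, with medians of 0.35 and 0.23, beside 11.4% and 11.6% of all genes that rose. CCNA2, the cyclin of S phase and G2, rose by 0.73 (SE 0.056, adjusted p = 4.43e-09) in p53 KO and by 0.64 (SE 0.056, adjusted p = 2.61e-08) in WT cells, and the transcription factor E2F1 by 0.48 (SE 0.091, adjusted p = 0.000712) and 0.64 (SE 0.091, adjusted p = 2.61e-05). PCNA, the polymerase clamp, rose by 0.47 (SE 0.057, adjusted p = 3.79e-06) and 0.39 (SE 0.057, adjusted p = 3.31e-05), and UHRF1, the reader that maintains DNA methylation, by 0.78 (SE 0.065, adjusted p = 1.72e-08) and 0.69 (SE 0.065, adjusted p = 9.11e-08). CCNE2, a cyclin of G1/S, changed by 0.23 (SE 0.092, adjusted p = 0.0817) in p53 KO and 0.20 (SE 0.094, adjusted p = 0.124) in WT cells, and neither was called. It was called in p53 KO without p53 KO vehicle replicate 1 (0.0415) and with GC and length trends removed (0.0195, in a range of 0.0195 to 0.256). In WT it was called without WT vehicle replicate 1 (0.0368) or 2 (0.0466) and with GC and length trends removed (0.00356, in a range of 0.00356 to 0.375). Between genotypes under vehicle 10 of 33 replication genes were lower and 3 higher in p53 KO, PCNA among them at -0.33 (SE 0.057, adjusted p = 0.000146), where 12.1% of all genes were lower and 9.63% higher. Under GCN2iB 3 were lower and 5 higher, a share near the 23.9% of all genes called. The share of cells in S phase was not measured, and its part in the changes of the 9 enzymes was not tested.

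**Figure D5:**
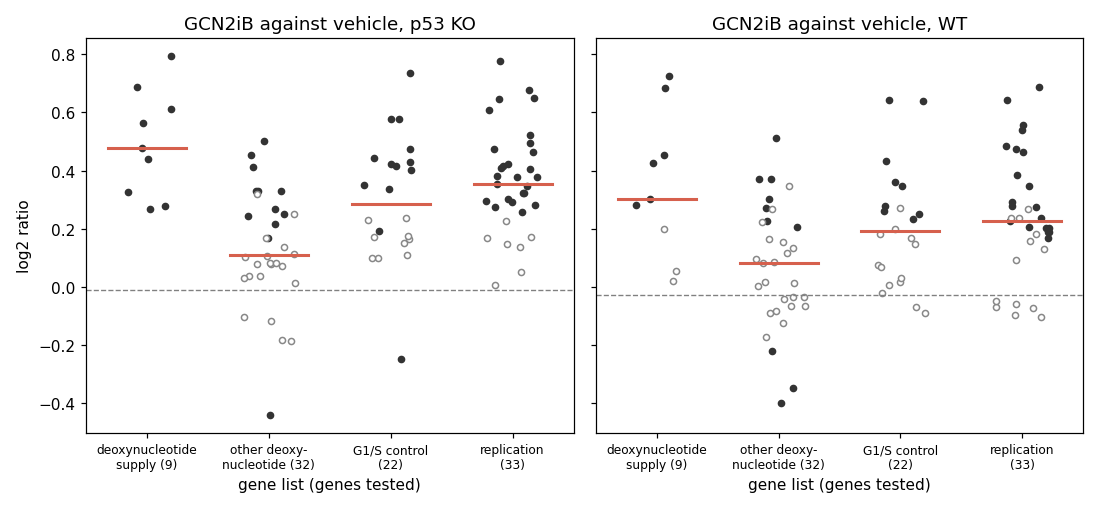
Log2 ratio of GCN2iB to vehicle for each tested gene of 4 lists, in p53 KO cells (left) and WT cells (right), with filled points called at an adjusted p under 0.05, red bars at each list's median and a dashed line at the median of all tested genes. The median of the 9 enzymes is 0.48 in p53 KO and 0.30 in WT cells, and that of the 32 other genes of deoxynucleotide metabolism is 0.11 and 0.083.

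Over the 16 libraries the members followed each other to different degrees. These correlations of log2 CPM are descriptions over 16 libraries that share 4 groups. The closest pair was TK1 and DTYMK at r = 0.991, and each was the gene most like the other among 10772 genes with at least 5 CPM on average. The least alike were TYMS and SAMHD1 at 0.25. RRM1 and RRM2, the subunits of one enzyme, stood at 0.828. Outside the list, RRM2 was most like CCNA2 (0.992), NONO (0.983) and NCAPH (0.979), and RRM1 most like DNA2 (0.978), ESCO2 (0.975) and CLSPN (0.971). DNA2, ESCO2 and CLSPN act at replication forks or in sister chromatid cohesion, and NCAPH is a condensin subunit. TK1 after DTYMK was most like CDC45 (0.987), a part of the replicative helicase, and TACC3 (0.985). DTYMK after TK1 was most like POLR3K (0.986) and GTF3C5 (0.985). For the remaining members only the closest gene is given. DUT was most like SNRPD1 (0.978), DCK like HDAC2 (0.954), DCTPP1 like MRPS7 (0.972), SAMHD1 like BRD8 (0.947) and TYMS like DNAJC11 (0.92).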

How the data were processed

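Bulk RNA-seq of 16 LNCaP libraries was analysed from raw read counts per gene that the authors deposited without normalization. Per the submitters' processing notes, Trim Galore, HISAT2, featureCounts, DESeq2 and GRCh38 were used. Whether counting used strand is not given in the sources used here, nor are versions and the annotation release. All 16 columns were matched, each to 1 sample by group and replicate, with 0 left over. Totals ranged from 17418072 to 39915685 counts, which limits the precision of low genes most. Symbols were found for 42343 of 62754 gene identifiers and GENCODE 29 positions for 58261.

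Genes were filtered with filterByExpr, which left 18549 genes with at least 99.906% of every library's counts. Totals were scaled by TMM, and 1 quasi-likelihood model with 1 term per group was fitted in edgeR 4.0.16 (R 4.3.3) with robust dispersion. There were 6 contrasts, all two-sided. Adjustment was Benjamini-Hochberg's over all tested genes of a contrast, and the threshold was 0.05. The SE is the log2 change over the root of F, and 95% intervals are normal. An interaction above 0 means that the log2 change was higher in p53 KO. Alternatives used DESeq2 1.42.0, limma 3.58.1 (voom), other scaling, filters and fits, and left out each library in turn. Removal of GC and length trends, and leaving out both replicate 4 GCN2iB libraries, were chosen after seeing the data. The fit was tested on simulated counts, with genes of at least 50 counts on average changed in WT GCN2iB. Against WT vehicle it recovered 86 of 100 genes changed 1.5-fold and 98 of 100 changed 2-fold. Smaller changes, and changes in the other groups, were not simulated.

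The members, lists, motifs and the rule for named genes were chosen with earlier results of these data known. Named are the 9 members, RRM2B, TK2 and DGUOK, up to 6 more called genes of the same metabolism per comparison by adjusted p, E2F1, CCNE2, MCM2, PCNA and up to 4 more cell-cycle genes, plus checks of the groups. Of these, the genes a result turned on are given. Outside the rule, SLC29A1 with GCN2iB in p53 KO and SHMT1 between genotypes under vehicle are given too. So are changes or calls of ENOSF1, TYMSOS, MOB1B and ZNF771, which overlap members. None of these values was compared over the alternatives. Most alike genes were ranked by Pearson r of log2 CPM with a prior count of 1. Promoter windows are from RefSeq on GRCh38.p14. Tables and plots used Python 3.11.15, pandas 2.3.3 and matplotlib 3.10.9. The targeted gene and some other named genes are not reported here.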

Additional observations from a re-analysis of the deposited data

Results flagged for a closer look

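In 36 groups of 4 libraries (9 members in 4 groups), 4 had a library far from the other 3 by Dixon's test at its 95% level, which chance gives in about 1 of 20 groups. RRM1 held 187.4 CPM in p53 KO vehicle replicate 4, where the other 3 held 203 to 206. RRM1 held 254.0 CPM in WT GCN2iB replicate 1, where the other 3 held 229 to 230.5. TK1 held 426.1 CPM in p53 KO GCN2iB replicate 4, where the other 3 held 359 to 367. DUT held 145.0 CPM in the same library, where the other 3 held 119.5 to 123. Leaving out any of these libraries ended no call of RRM1, TK1 or DUT with GCN2iB.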

How the results depend on the processing

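Over the alternatives, 1026 member values were recomputed: 992 stayed on their side of the threshold, 14 lost and 20 gained a call, and 0 called values changed sign, while 43 uncalled values did. The cause of each shift was not tested. The count of members called for p53 KO against WT under vehicle was 1, and 2 with the replicate block (1 to 2 without single libraries). Under GCN2iB it was 2, but 1 without the count filter or with only the groups compared. It was 4 with the replicate block and 5 with GC and length trends removed (1 to 2 without single libraries). Over all genes the calls under GCN2iB were 4441, against 4206, 4123, 5775 and 5747 (of 17678 genes) in the same order. Under vehicle the calls over all genes were 4025, and 5203 with the replicate block. Members called with GCN2iB ranged over 8 to 9 in p53 KO and 5 to 6 in WT cells without single libraries. For the interaction, 1 gene was called, against 2 with DESeq2 size factors, 4 with library totals, 47 without the count filter, 6 with at least 50 counts on average, 38 by the DESeq2 test, 61 with the replicate block, 13 with GC and length trends removed, 6 without both replicate 4 GCN2iB libraries and 1 to 53 without single libraries (53 without WT GCN2iB replicate 1, 10 without p53 KO GCN2iB replicate 4). Of 72 recomputed levels 4 moved by 1 SD or more, all with library totals. The labels do not say that a replicate number marks a shared batch. Of 24 same-number pairs 12 correlated above 0.1 (median 0.0936, range -0.064 to 0.614) and 11 of 16 libraries were most like one of their own number, which is a hint from the data and not the design, so the block stayed an alternative. It raised the genes called with GCN2iB to 5301 in p53 KO and 6139 in WT, against 3734 and 4677. With it TYMS was lower in p53 KO under GCN2iB (adjusted p = 0.0354) and vehicle (0.0252), and DCTPP1 was higher in p53 KO under GCN2iB (0.019). It also called DCTPP1 (0.0125) and DGUOK (0.0102) in WT and TK2 (0.039) and CCNE2 (0.0327) in p53 KO with GCN2iB, and DCK in p53 KO GCN2iB against WT vehicle (0.0214).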
